A study of Mus musculus with 10 samples.

Results

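The genes described here are the 67 protein-coding genes of the mouse histone clusters, out of 35501 genes with a summed abundance, measured in single oocytes. A gene was taken as a member where its GENCODE M21 symbol starts with Hist1h, Hist2h, Hist3h or Hist4h. Of the members, 6 encode linker histone H1, 18 encode H2A, 18 encode H2B, 12 encode H3 and 13 encode H4. By cluster, 54 belong to Hist1, 10 to Hist2, 2 to Hist3 and 1 to Hist4.

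The libraries were made from single metaphase II oocytes, eggs arrested before fertilisation, of ICR mice 6 to 8 weeks old. In both groups, oocytes with an intact germinal vesicle were taken from the ovary and matured in culture for 16 h, and the labels name no other agent for either. The 5 control libraries came from oocytes labelled only as control, and the 5 others from oocytes that received TubA at 0.1 µg/mL for 16 h, a name the labels do not spell out. The labels name no animal or culture, so n counts oocyte libraries and every p-value reflects the variation between single libraries, part of which may be technical.

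Cluster histone genes supply the histones that package newly copied DNA, and in dividing cells they are expressed in S phase. Most of their mRNAs carry no poly(A) tail: they end in a short stem-loop that is bound by SLBP, which guides their processing, and growing oocytes store histone mRNA together with SLBP for the first divisions of the embryo. Smart-seq2, the amplification used here, starts from poly(A), so mRNAs that end at the stem-loop are copied poorly by its design, and the values below describe what was copied, not all histone mRNA of the oocyte. Values are in TPM, an abundance per transcript length scaled to the same total in each library, which keeps no sequencing depth.

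The stem-loop is the sequence that sets this family apart, and its main forms in the GENCODE M21 transcripts are shown with the 16-base hairpin in capitals and 5 bases on each side, 5′ to 3′.
Hist2h3c1: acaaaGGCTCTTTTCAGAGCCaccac
Hist2h2aa1: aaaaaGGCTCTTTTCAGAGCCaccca
Hist1h1c: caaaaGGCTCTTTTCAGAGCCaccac
Hist1h3f: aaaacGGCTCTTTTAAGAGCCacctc
Hist1h4h: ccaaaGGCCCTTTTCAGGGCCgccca
Hist2h4: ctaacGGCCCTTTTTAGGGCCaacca
The search was for a 6-base stem that starts with GG, closes by base pairing and encloses a 4-base loop starting TTT. It was found after the stop codon in 42 of 67 members, and it started 22 to 59 bases after the stop codon (median 32.5). Among the members, 24 carried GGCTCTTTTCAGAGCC, the form shown for Hist2h3c1, and these were of the H1, H2A, H2B and H3 classes. The form of Hist1h4h was carried by 7 members, all of class H4. The form of Hist2h4 was carried by 2 members, also of class H4. The form of Hist1h3f was carried by 6 members of the H1, H2B and H3 classes. Of the forms not shown, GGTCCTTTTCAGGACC was carried by 2 members of class H4 and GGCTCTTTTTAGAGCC by 1 of class H2A. Of the members without a hairpin, 13 had a model that ends at the stop codon, 1 had a leading model with no stop codon and 11 had bases after the stop codon but no hairpin in them. The bases held by these 11 models ran from 1 to 2192, with 37 for Hist2h3b, 48 for Hist1h1a, 95 for Hist1h3g and 742 for Hist1h2bc. A hairpin beyond the end of a short model could not be found. The model of Hist1h2bc has 2 exons, and no hairpin was found in its 742 bases. Where a model held at least 120 bases after the stop codon, the hairpin lay in those 120 bases for 21 of 27 members (77.8%) and for 9 of 46159 other protein-coding transcripts (0.0195%).

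Some gene models run on past the hairpin. In 21 members the model held over 100 bases beyond it, among them Hist2h3c1 with 1162 bases, Hist2h4 with 1257 bases, Hist1h1c with 840 bases and Hist1h3f with 365 bases. These were 4 of the 12 members with a mean of at least 1 TPM and 17 of the 55 members below that level. The 2 other members with a hairpin above 1 TPM, Hist2h2aa1 and Hist1h4h, had models that ended 35 and 46 bases beyond it.

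Before the members are compared, a split among the libraries has to be given. Clustering of all genes put the libraries in 2 sets of 5 that cross the treatment: control 1 to 3 with TubA 1 and 2 (set A), and control 4 and 5 with TubA 3 to 5 (set B). The sets are not a label of the submitters, and results are given with all libraries and within sets where they differ. The oocyte marker list, led by Gdf9, Oosp1, Bmp15 and Zp3, summed to 13204 to 32520 TPM per library. The cumulus and granulosa marker list, from the cells that surround the oocyte, had 11 genes and summed to 11.8 to 33.3 TPM in control and 16.2 to 31.5 TPM after TubA. Most of that came from Cyp19a1 (10.5 ± 2.60 and 12.6 ± 3.79 TPM, mean ± SD, n = 5 each, control first, here and below) and Kitl (8.64 ± 6.52 and 6.84 ± 3.75 TPM), then Has2 and Inha. Of the 11, 2 were listed at 0 in all libraries, Amh and Foxl2, both named after their values were seen. The other 9 were above 0 in at least 1 library, among them Fshr, a defining receptor of granulosa cells, at up to 0.863 TPM. The part of such RNA in the results was not tested.

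Most cluster histone genes were low. Of the 67 members, 23 were listed at 0 in every library, and 44 (65.7%) were above 0 in at least 1 library, a share close to the 62.8% of all 35501 genes. Of the 44, 12 were above 0 in all 10 libraries, and 5 reached 1 TPM in all of them: Hist1h2aa, Hist2h3b, Hist1h1a, Hist2h3c1 and Hist2h4. A mean of at least 1 TPM was reached by 12 members (17.9%) and by 32.9% of all genes, and a mean of at least 10 TPM by 1 member (1.49%) and by 17.5% of all genes. The number of members at 1 TPM or more per library was 10, 11, 11, 14 and 10 in control and 9, 15, 14, 11 and 11 with TubA. The number above 0 was 22, 22, 25, 26 and 22 in control and 28, 27, 30, 26 and 25 with TubA. The ranges overlapped for both counts. Library depth is unknown, and its part in these counts was not tested.

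The members lie in 5 blocks of the genome. The Hist1 cluster on chromosome 13 falls into a block of 23 members (chr13:21715763-22043676, GRCm38) and one of 31 members (chr13:23531050-23934851). In the block of 23, 12 members were above 0 somewhere and 0 reached a mean of 1 TPM, whereas in the block of 31, 22 were above 0 and 8 reached it. The Hist2 cluster (chr3:96219865-96270132) had 7 of 10 members above 0 and 4 with a mean of at least 1 TPM. The Hist3 pair (chr11:58948920-58956830) and the single Hist4 gene (chr6:136801553-136804415) were above 0 with means under 1 TPM. Summed over its members, the block of 23 stood at 1.04 ± 1.08 TPM in control and 2.90 ± 2.22 TPM after TubA. The Hist2 cluster stood at 27.6 ± 7.82 and 22.2 ± 2.82 TPM, and the block of 31 without Hist1h2aa at 20.5 ± 3.17 and 21.3 ± 7.54 TPM.

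**Figure D1:**
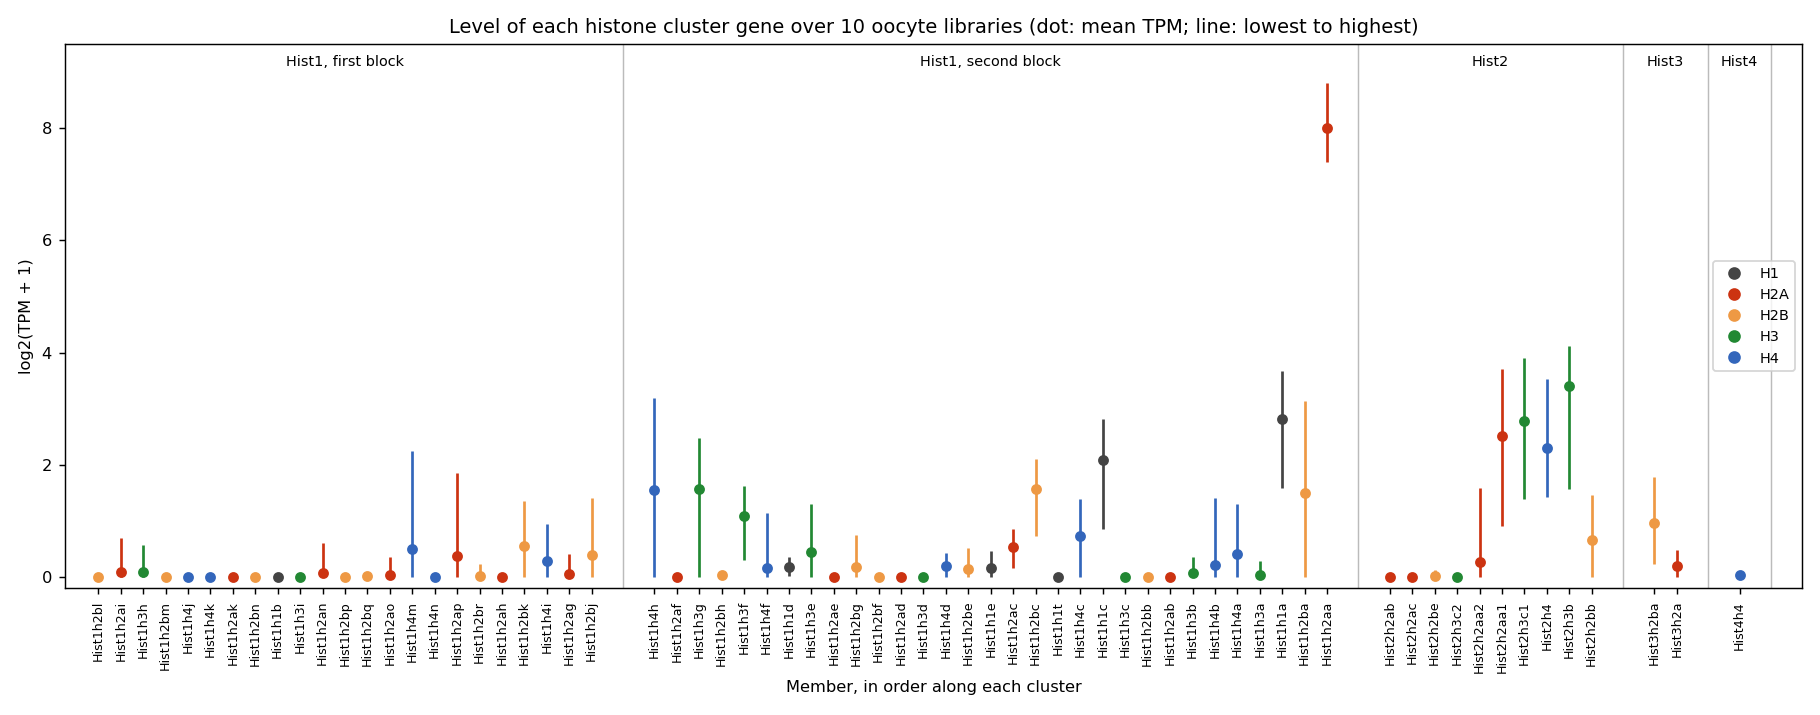
Level of all 67 members in order along each cluster. The vertical axis is log2(TPM + 1), the dot is the mean TPM over 10 libraries put on that scale, the line runs from the lowest to the highest library, and colours give the histone class. Hist1h2aa, at the end of the second Hist1 block, stands alone above all other members.

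One gene held most of the signal. Hist1h2aa encodes TH2A, an H2A variant of testis and oocyte, and lies at the end of the Hist1 cluster (ENSMUSG00000060081, chr13:23934462-23934851, plus strand, single exon). It stood at 447, 224, 211, 169 and 191 TPM in control libraries 1 to 5 and at 179, 313, 361, 167 and 296 TPM in TubA libraries 1 to 5. Control 1 was the highest library and lay above all TubA libraries, while the other 4 control libraries lay within the TubA range. The mean over all libraries was 255.8 TPM, 26.8-fold the mean of the next member and rank 684 of 35501 genes (rank 348 to 1022 in single libraries). Hist1h2aa made up 77.8% to 89.2% of the summed TPM of all members. Its coefficient of variation over the 10 libraries, 37.1%, was the smallest of the 12 members with a mean of at least 1 TPM. The others had means of at most 9.56 TPM, and the part of level in this ranking was not tested. Of its 31-base sequence words, 10.8% also occurred in another gene that was above 0 TPM in at least 1 library. Its 390-base model ends at the stop codon, so whether its mRNA carries a stem-loop or a poly(A) tail could not be read from the model. The miRNA gene Gm44344 overlaps it on the opposite strand. Strandedness is not stated in the labels, and reads of both genes cannot be told apart.

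Hist1h2aa is 1 arm of a divergent pair. H2A and H2B genes of the clusters often sit head to head, and 12 such pairs were found with 175 to 305 bases between the genes. The pair of Hist1h2aa is Hist1h2ba, which encodes TH2B, the H2B partner of TH2A (ENSMUSG00000050799, chr13:23933773-23934156, minus strand), and its gap of 305 bases is the widest of the 12. Hist1h2ba stood at 7.78, 0.650, 0, 1.59 and 0 TPM in control and at 0, 4.72, 1.71, 0.643 and 1.24 TPM after TubA. It was listed at 0 in control 3, control 5 and TubA 1, and it was highest in control 1, as was Hist1h2aa. Over all libraries the mean of Hist1h2aa was 139.6-fold that of Hist1h2ba. Of the words of Hist1h2ba, 44.1% also occur in 1 other H2B gene, Hist1h2bq, and its model ends at the stop codon too. The values of both genes over the 10 single-cell libraries had Pearson r = 0.82 and Spearman rho = 0.68. Without control 1 and TubA 3, the libraries farthest from the Hist1h2aa median, r was 0.69. TubA 2, at 4.72 TPM for Hist1h2ba, stayed in. Both values of a point come from 1 library and share its depth and set.

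**Figure D2:**
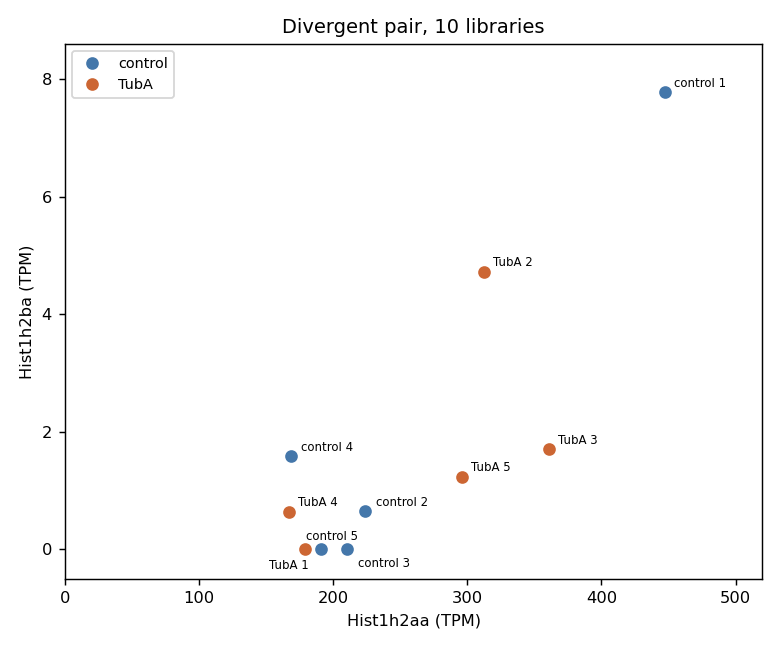
Hist1h2aa (horizontal, TPM) against Hist1h2ba (vertical, TPM) in each of the 10 libraries, coloured by group. Control 1 is highest for both genes, and the 3 libraries listed at 0 for Hist1h2ba lie between 179 and 211 TPM for Hist1h2aa.

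The other 11 divergent pairs were low in both arms. Their highest mean was 1.95 TPM, for Hist1h2bc, an H2B gene whose partner Hist1h2ac stood at 0.449 TPM. Over all 12 pairs, the H2A arm had the higher mean in 5, the H2B arm in 5, and both arms were listed at 0 in 2. In the Hist1h2ac and Hist1h2bc pair the values had Pearson r = 0.20 and Spearman rho = 0.13 over the 10 libraries. Without control 1 and TubA 5, the libraries farthest from the Hist1h2ac median, r was 0.35.

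The stretch between Hist1h2aa and Hist1h2ba is shown because it lies upstream of both. These are the 250 bases before the RefSeq start of Hist1h2aa (GRCm38.p6, chr13:23934187-23934436, plus strand, 5′ to 3′), with the motif matches in capitals.
Hist1h2aa: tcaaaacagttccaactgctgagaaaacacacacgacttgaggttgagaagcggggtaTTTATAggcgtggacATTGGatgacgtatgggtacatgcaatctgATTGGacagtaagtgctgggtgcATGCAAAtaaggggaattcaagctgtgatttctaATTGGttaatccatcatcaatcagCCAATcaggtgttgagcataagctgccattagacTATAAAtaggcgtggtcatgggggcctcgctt
The letters searched, on both strands, were ATGCAAA (the core of the octamer bound by OCT factors), CCAAT (the CCAAT box) and TATAAA (the TATA box), and no match overlaps another here. ATGCAAA starts at -124, counted from the RefSeq start. CCAAT starts at -66 on the strand shown, and it is found on the other strand, as ATTGG, from -177, -147 and -90. TATAAA starts at -32, and on the other strand, as TTTATA, from -192. The RefSeq table held promoters of 61 members under newer symbols. ATGCAAA was found in 14 of them (23.0%) and in 4.12% of all 32851 promoters of this length. Of the 14, 7 were H2A promoters (of 17), 6 were H2B promoters (of 16), 1 was an H4 promoter (of 12), and none belonged to the 6 H1 or the 10 H3 promoters. These are not independent: the windows of both arms of a divergent pair overlap, and 3 pairs, that of Hist1h2aa among them, hold the letters in both windows. CCAAT was found in 50 of 61 (82.0%) against 33.8% of all promoters: in all H1, H2A and H2B promoters, in 8 of 10 for H3 and in 3 of 12 for H4. TATAAA was found in 29 of 61 (47.5%) against 12.4%. Such matches describe letters and not binding sites, and members of 1 class share ancestry and sequence.

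The remaining H2A and H2B genes were low. Hist2h2aa1, a canonical H2A gene of the Hist2 cluster (chr3:96245497-96246082), stood at 6.48, 6.37, 6.46, 4.18 and 1.10 TPM in control and at 0.867, 12.0, 2.70, 4.93 and 1.66 TPM after TubA. TubA 2 was the highest library and TubA 1 the lowest, so the TubA range enclosed the control range. Its near copy Hist2h2aa2, with which it shares 89.6% of its words, was listed at 0 in 8 libraries, at 0.0184 TPM in control 4 and at 1.99 TPM in TubA 1. TubA 1 was also the library where Hist2h2aa1 was lowest. Summed over both copies, the values were 4.92 ± 2.35 TPM in control and 4.83 ± 4.18 TPM after TubA. Hist1h2bc (chr13:23684199-23692908) stood at 0.966, 1.20, 1.34, 3.27 and 1.63 TPM in control and at 1.73, 2.97, 3.04, 2.71 and 0.661 TPM after TubA. The groups overlapped, with the highest value in control 4. Hist3h2ba, an H2B gene of the Hist3 cluster, had a mean of 0.940 TPM (0.169 to 2.44), just under the level of 1 TPM for testing. It stood at 1.30 ± 0.852 TPM in control and 0.584 ± 0.265 TPM after TubA.

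The H3 class was led by the Hist2 cluster, whose H3 genes encode H3.2. Hist2h3b (chr3:96268654-96269141) stood at 7.21, 6.998, 12.8, 12.7 and 8.38 TPM in control and at 12.8, 1.96, 16.4, 8.54 and 7.85 TPM after TubA. The highest and the lowest library were both TubA libraries. Hist2h3c1 (chr3:96246685-96248509) stood at 13.9, 8.67, 4.73, 3.39 and 4.81 TPM in control and at 6.40, 6.69, 1.66, 1.62 and 7.12 TPM after TubA. Control 1 was highest, and TubA 3 and TubA 4 were below all control libraries. Hist2h3b shares 80.6% of its words with Hist2h3c1, so the split between them is uncertain. The third Hist2 H3 gene was listed at 0 in all 10 libraries, and 64.2% of its words occur in Hist2h3c1, so its 0 is uncertain too. Together the 3 Hist2 H3 genes stood at 16.7 ± 2.92 and 14.2 ± 4.68 TPM. Antisense gene Gm20628 overlaps Hist2h3b, and Gm20634 overlaps Hist2h3c1 and Hist2h2aa1, the latter together with Gm20633 and Gm47313. In the Hist1 cluster, Hist1h3g (chr13:23535422-23535951) stood at 0.686, 3.67, 0.769, 2.90 and 4.35 TPM in control and at 0.236, 2.03, 0.424, 4.60 and 0 TPM after TubA. Hist1h3f (chr13:23544052-23545312) ranged from 0.603 to 2.07 TPM in control and from 0.241 to 2.02 TPM after TubA. Both Hist1 genes overlapped between groups.

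H4 pairs with H3 at the core of the nucleosome. Hist2h4 (ENSMUSG00000091405, chr3:96261682-96263311), whose hairpin is shown above, stood at 7.93, 10.5, 3.91, 4.18 and 1.70 TPM in control and at 2.07, 2.26, 2.23, 2.91 and 1.73 TPM after TubA. Control 1 to 4 were above all TubA libraries, and control 5 was below all of them. Among the H4 genes above 0 TPM in at least 1 library, the one nearest to it held 2.19% of its words, so it can be told from those. H4 genes listed at 0 in every library were not compared with it. Hist1h4h (chr13:23531050-23531519) stood at 0, 0.958, 0, 2.51 and 8.12 TPM in control and at 1.64, 0.938, 3.06, 0.400 and 1.58 TPM after TubA. Its control libraries held both the highest value and the 2 listed at 0. Hist1h4c, below the level for testing, stood at 1.04 ± 0.545 TPM in control and 0.292 ± 0.463 TPM after TubA, where 3 libraries were listed at 0.

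Linker histone H1 binds the DNA between nucleosomes, and 2 of its cluster genes were above 1 TPM on average. Hist1h1a, which encodes H1.1 (chr13:23763666-23764406), stood at 9.74, 3.68, 9.92, 4.47 and 2.004 TPM in control and at 7.59, 11.8, 5.09, 4.07 and 2.12 TPM after TubA. The groups overlapped nearly completely. By library set the level was 8.54 ± 3.09 TPM in set A and 3.55 ± 1.41 TPM in set B (n = 5 each), and control 2 was the 1 library of set A within the range of set B. By the same split, Hist2h3c1 stood at 8.08 ± 3.55 and 3.72 ± 2.32 TPM, and Hist1h4h at 0.708 ± 0.705 and 3.13 ± 2.96 TPM. The sets were found from the same values, so these differences carry no test. Hist1h1c, which encodes H1.2 (chr13:23738808-23740367), stood at 0.804, 1.997, 5.20, 2.46 and 1.47 TPM in control and at 6.07, 3.63, 3.70, 2.71 and 4.48 TPM after TubA. All TubA libraries were above 4 of the 5 control libraries, and control 3 lay within the TubA range. Hist1h1d, which encodes H1.3, was above 0 in all libraries but had a mean of 0.130 TPM (0.0184 to 0.274).

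**Figure D3:**
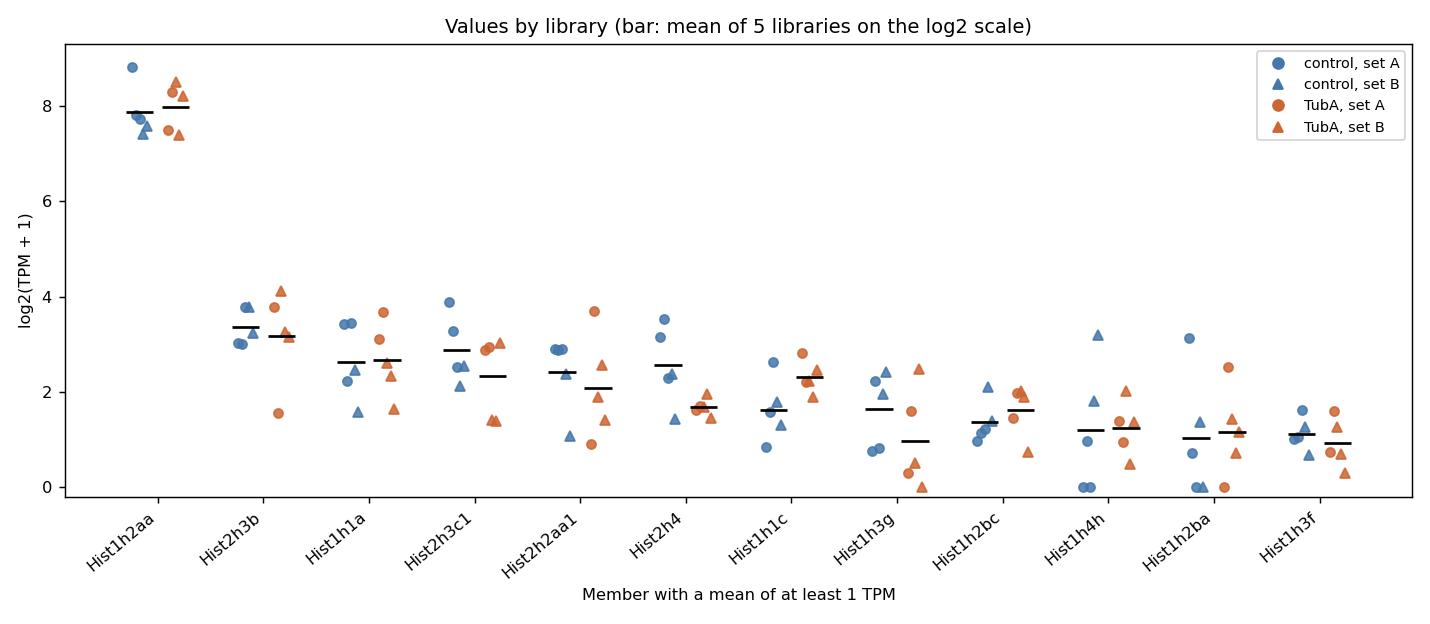
Values of the 12 members with a mean of at least 1 TPM, on the log2(TPM + 1) scale. Each point is 1 library, circles are set A and triangles set B, and the bar is the mean of 5 libraries. The groups overlap for every gene shown.

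The design asks which transcripts differ when oocytes mature with TubA. Of the 12 members with a mean of at least 1 TPM, 0 passed the test (limma on log2(TPM + 1), adjusted over all 11664 genes tested), where 0.00857% of all genes tested passed: 1 gene, the pseudogene Rpl36-ps1, named after its values were seen. At an unadjusted p under 0.05 there was 1 of 12 members, which was lower with TubA, where 2.51% of all genes tested were under it in either direction, 1.38% lower and 1.13% higher. None of the 12 had groups that did not overlap, where 0.454% of all genes tested did. The median difference of the 12 members was -0.07 on the log2(TPM + 1) scale, and that of all genes tested was 0.01. The difference was below 0 in 6 of 12 members and in 48.6% of all genes tested.

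Hist2h4 had the largest difference of the 12. Its difference was -0.87 (95% interval -1.68 to -0.07, SE 0.37, limma unadjusted p = 0.036, adjusted p = 1.0), with 4 of 5 control libraries above all TubA libraries. Within set A the difference was -1.33 and within set B -0.20. The sets were found from the same values, so an interaction test cannot judge this gap. With the library set as a term the difference of Hist2h4 was -0.77 (limma unadjusted p = 0.052), where the set again comes from the same values. Without that term, leaving out each of the 10 libraries in turn gave differences from -1.15 to -0.63, the latter without control 2. Leaving out any 1 of control 1, control 2 or TubA 1, 2, 3 and 5 took the limma unadjusted p to between 0.055 and 0.100.

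Hist1h1c differed by 0.69 in the other direction (-0.06 to 1.44, SE 0.34, limma unadjusted p = 0.067), with 0.83 in set A and 0.64 in set B. Hist1h2aa, the most abundant member, differed by 0.11 (-0.53 to 0.75, SE 0.30, limma unadjusted p = 0.71). The sign turned with the libraries used: the difference was -0.22 within set A, 0.54 within set B, and -0.02 without TubA 3. For Hist1h2ba the difference was 0.12 (-1.24 to 1.48). The H3 genes stood at -0.19 (-1.13 to 0.75) for Hist2h3b, -0.54 (-1.52 to 0.44) for Hist2h3c1, -0.66 (-1.79 to 0.48) for Hist1h3g and -0.20 (-0.91 to 0.51) for Hist1h3f. The remaining differences were -0.33 (-1.48 to 0.82) for Hist2h2aa1, 0.25 (-0.48 to 0.98) for Hist1h2bc, 0.05 (-0.94 to 1.03) for Hist1h1a and 0.05 (-1.20 to 1.31) for Hist1h4h. For Hist1h4h the difference was 0.85 within set A and -1.21 within set B, a gap that an interaction test cannot judge for the same reason as for Hist2h4. With 5 single oocytes a group, differences inside these intervals were not resolved.

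**Figure D4:**
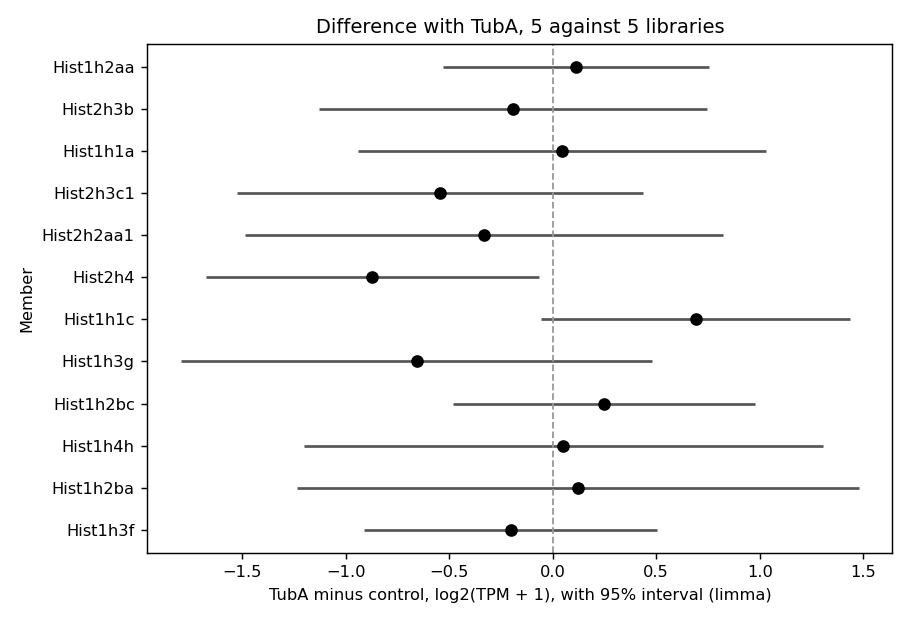
TubA minus control for the 12 tested members, on the log2(TPM + 1) scale, with the 95% interval from limma (5 against 5 libraries). The interval of Hist2h4 alone lies below 0, before adjustment over all genes, and the other 11 include 0.

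Summed by class, the groups also overlapped. All members together stood at 299 ± 120 TPM in control and 310 ± 90.3 TPM after TubA, which is 0.0299% and 0.0310% of the library. Without Hist1h2aa the sums were 50.6 ± 9.37 and 47.1 ± 10.1 TPM. H2A stood at 254 ± 114 and 269.5 ± 86.7 TPM, and at 5.60 ± 2.36 and 6.28 ± 3.72 TPM without Hist1h2aa. H2B stood at 6.13 ± 3.78 and 6.65 ± 2.71 TPM, H1 at 8.58 ± 4.69 and 10.5 ± 4.19 TPM. H3 stood at 20.8 ± 1.55 and 17.3 ± 3.04 TPM, and H4 at 9.51 ± 2.22 and 6.39 ± 2.35 TPM. Reads exchanged between cluster copies of 1 class stay within such a sum, but not those exchanged with copies outside the clusters.

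**Figure D5:**
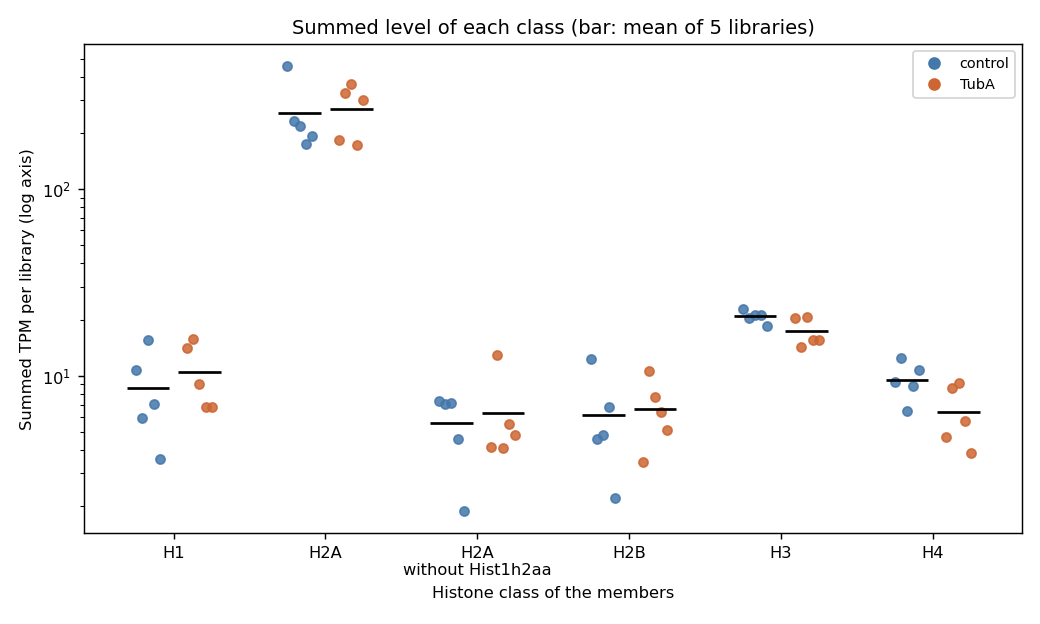
Summed TPM of each class per library, on a log axis; each point is 1 library and the bar is the mean of 5. H2A stands above the other classes through Hist1h2aa, without which it falls to between 1.88 and 12.9 TPM.

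The 13 members that the naming rule takes beyond the 12 tested were low and uneven. Beside Hist3h2ba, Hist1h4c, Hist2h2aa2, Hist1h2ac and Hist1h1d they were Hist2h2bb (mean 0.585 TPM), Hist1h2bk (0.475 TPM), Hist1h4m (0.422 TPM), Hist1h3e (0.360 TPM), Hist1h4a (0.334 TPM), Hist1h2bj (0.304 TPM), Hist1h2ap (0.293 TPM) and Hist1h4i (0.213 TPM). Hist1h4m was above 0 in 2 libraries and Hist1h2ap in 3. The other 42 members had means of at most 0.166 TPM, and 19 of them were above 0 in any library, up to 1.66 TPM. Copies are a limit here, and only genes above 0 TPM in at least 1 library were compared. At least 52 of the 67 members, and at least 8 of the 12 tested, shared 20% or more of their 31-base words with 1 other gene. For 14 members that gene could be one outside the clusters, among them H2afx, the replacement H2A gene that marks DNA breaks, at 78.7 ± 32.6 TPM in control and 92.5 ± 70.8 TPM after TubA.

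Among the genes that make, bind and degrade histone mRNA, the leading ones were abundant. Slbp, the stem-loop binding protein, stood at 9951 ± 1825 TPM in control and 10387 ± 945 TPM after TubA and had the rank 6 of all genes by mean. Pou2f1 (OCT1, which binds the octamer) stood at 200.6 ± 50.3 and 171 ± 23.3 TPM, Mif4gd (SLIP1, a partner of SLBP in translation) at 173 ± 11.5 and 191 ± 54.0 TPM. Lsm10, a subunit of the U7 particle that cuts histone mRNA, stood at 129 ± 82.0 and 132 ± 66.3 TPM. Of 30 genes in this list 28 were tested, and 0 passed limma over all genes (0.00857% of all genes tested passed). At an unadjusted p under 0.05 there were 0 (2.51% of all genes tested). Their median difference was 0.04 (0.01 for all genes tested), with 10 of 28 below 0 (48.6% of all genes tested).

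Histones from genes outside the clusters, whose mRNAs are mostly polyadenylated and not tied to S phase, are the other source of the protein, and the leading ones were far above most cluster genes. H1foo, the oocyte linker histone, stood at 14869 ± 2606 and 13734 ± 1965 TPM, H3f3b and H3f3a (both H3.3) at 1630 ± 387 and 1551 ± 276 TPM and at 419 ± 82.2 and 433 ± 88.2 TPM, and Cenpa, the H3 of centromeres, at 134 ± 46.8 and 129 ± 37.7 TPM. Of 11 tested, 0 passed limma over all genes (0.00857% of all genes tested passed). The difference was below 0 in 8 (48.6% of all genes tested), with a median of -0.06. At an unadjusted p under 0.05 (2.51% of all genes tested) there was 1, H2afz (H2A.Z), named after its values were seen: it stood at 74.5 ± 10.2 TPM in control and 46.6 ± 11.8 TPM after TubA, without overlap (as for 0.454% of all genes tested; difference -0.69, limma unadjusted p = 0.0060, adjusted p = 1.0). The S phase list, led by Mcm2, Cdt1, Ccne2 and Mcm6, summed to 583 ± 66.5 and 625 ± 76.1 TPM. Of its 11 genes, 0 passed (0.00857% of all genes tested).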

How the data were processed

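Per the labels' protocols, each library is 1 oocyte amplified with Smart-seq2. Per the submitters' processing notes, the build was mm10, and Bowtie 0.12.2 was among the tools. For the quantifying program and its annotation, a name is not given in the sources used. The authors deposited TPM per Ensembl transcript, the unit read from values that sum to 1000000 in each library. No count was recovered, so the depth is unknown and precision is the spread between libraries.

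Transcripts were summed to genes with GENCODE M21 (GRCm38, the assembly of mm10), where 113492 matched and 1778, holding 0.531% to 0.753% of TPM, did not. limma 3.58.1 (R 4.3.3) was run on log2(TPM + 1) on 11664 genes (mean TPM over all libraries of at least 1), with trend and robust moderation, Benjamini-Hochberg adjustment over all of them and a threshold of 0.05, and was tested on simulated data. Differences are TubA minus control on that scale, which understates changes of low genes. No pair of files was identical. A copy is a gene above 0 TPM in at least 1 library that holds at least 20% of a member's 31-base words. Genes listed at 0 in every library were not compared, so shares of words and counts of copies are lower bounds. Sets of libraries come from complete-linkage clustering of correlations over the genes tested, with the tree cut into 2 sets. Promoters are from RefSeq, matched through synonyms. Python 3.11.15, pandas 2.3.3, numpy 2.4.6 and matplotlib 3.10.9 were used.

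Named members are the 24 of highest mean and the 3 highest of each class; from other lists, genes past the threshold or otherwise the 4 highest. Rpl36-ps1, H2afz, H2afx, Amh, Foxl2, Fshr and genes overlapping or next to members were named outside this rule, after their values were seen. The members and lists were chosen with earlier results of these data known. Other pseudocounts, filters, scalings, weights, a replicate block, the sets, and leaving out each library were tried.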

Additional observations from a re-analysis of the deposited data

Results flagged for a closer look

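Of 67 sets of 5 values examined (members and sums, each in control and in TubA), 16 held a library far from the other 4, by a gap above 0.71 of the range. Chance gives about 1 in 20 such sets, the sets overlap in content, and values listed at 0 make the gap easy to reach. Control 1 was the high library in 5 of them: Hist1h2aa (447 TPM, others 169 to 224), Hist1h2ba (7.78 TPM, others 0 to 1.59), Hist1h2ac (0.807 TPM, others 0.311 to 0.450), the sum of all members (509.7 TPM, others 217 to 275) and the sum of H2A (454.7 TPM, others 174 to 231).

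Control 4 was the high library for Hist1h2bc (3.27 TPM, others 0.966 to 1.63), for Hist1h2bk (1.35 TPM, others 0 to 0.346) and for the number of members at 1 TPM or more (14, others 10 to 11). It was also the only control library above 0 for Hist1h4m (0.452 TPM) and for Hist2h2aa2 (0.0184 TPM). Control 5 was the only control library above 0 for Hist1h4a (0.440 TPM), and control 3 for Hist1h4i (0.921 TPM).

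With TubA, library 2 was the only one above 0 for Hist1h4m (3.77 TPM) and the high one for the H2A sum without Hist1h2aa (12.9 TPM, others 4.08 to 5.52). Library 5 was high for Hist1h2ap (2.63 TPM, others 0 to 0.305), and library 1 was the only one above 0 for Hist2h2aa2 (1.99 TPM).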

How the results depend on the processing

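No member passed the threshold under any alternative, where the smallest adjusted p was 0.97 (limma) and at most 3 members were under an unadjusted p of 0.05. Over all genes, the count past it was 1, and it was 0 with a mean of at least 5 TPM, 0 with the replicate block, 12 in set A alone and 0 in set B alone; it was 1 without each library in turn. Whether the replicate numbers pair the libraries is not known. Same-numbered deviations correlated from -0.31 to 0.48, and only numbers 4 and 5 matched best with their own. So few numbers cannot decide it, and the split into sets runs through the same deviations. With the replicate block, the members past the threshold stayed at 0. Members detected per library were 11.2 in control and 12.0 with TubA at 1 TPM, 20 and 23 at 0.1 TPM, and 4.4 and 3.4 at 5 TPM. The log2 difference of the member sum was 0.08, from -0.04 to 0.29 without single libraries, -0.20 in set A and 0.45 in set B.

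Of 256 values of tested members under 22 alternatives, 24 in 7 members changed sign; the cause was not tested. Within set A, Hist1h2aa was at -0.22 and Hist1h2ba at -0.027. Within set B, Hist2h3b was at 0.0044, Hist2h2aa1 at 0.23, Hist1h2bc at -0.20 and Hist1h4h at -1.21. With a pseudocount of 5, Hist1h4h was at -0.076 and Hist1h2ba at -0.010. Hist1h4h was at -0.27 with library weights and at -0.18 with the set as a term. Without single libraries, Hist1h2aa ranged from -0.020 to 0.35, Hist1h1a from -0.21 to 0.30, Hist1h2ba from -0.22 to 0.64, Hist1h4h from -0.25 to 0.55 and Hist2h3b from -0.43 to 0.21. Hist2h4 kept its sign, from -1.15 to -0.63.

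Depth is unknown and single oocytes vary, so low members are imprecise. Reads can be split between near-identical copies, and oocytes without a named animal or culture limit what n means.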

Other observations

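The genes around Hist1h2aa were low. Within 50 kb of Hist1h2aa, and apart from Hist1h2ba, lie Slc17a1 with a mean of 0.0323 TPM, Slc17a4 with 0.133 TPM, the pseudogene Snrp1c-ps2 with 0.0774 TPM and Scgn with 0.275 TPM. The 3 histone pseudogenes whose symbols start like the members, Hist1h2aj, Hist1h2al and Hist3h2bb-ps, were listed at 0 in all 10 libraries.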
